A study of Mus musculus with 12 samples.

Results

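The genes described here are a module of 29 genes of cholesterol synthesis, its sterol-controlled regulators and cholesterol transport, chosen by name and found as 29 of the 20718 genes of the deposited table. All 29 passed the filter on low counts, which left 16320 genes to test. The module holds 19 enzymes of the path from acetyl-CoA to cholesterol and its isoprenoid branch, 5 regulators (Srebf1, Srebf2, Scap, Insig1 and Insig2), and 5 genes of sterol transport and of the LXR oxysterol receptors (Stard4, Abca1, Abcg1, Nr1h2 and Nr1h3).

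Cells build cholesterol from acetyl-CoA through mevalonate, squalene and lanosterol. The transcription factors of the SREBP family switch on the genes of this path: when membrane sterol is low, the escort protein SCAP carries SREBP from the endoplasmic reticulum to the Golgi, where it is cut and released, and when sterol is high, INSIG proteins hold SCAP back. Insig1 is itself a strong SREBP target. When oxysterols build up, LXR receptors switch on the export pumps Abca1 and Abcg1. In the testis, Leydig cells turn cholesterol into testosterone, and germ cells hold intermediates of the path between lanosterol and cholesterol that act as meiosis-activating sterols.

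The study sequenced total RNA of testes from F0 mice, of a strain the labels call IRC mouse, in 12 libraries with 3 per group. In the OV group (8276OV in the labels) a virus overexpressed lncRNA8276, a long non-coding RNA, and in the KD group (8276KD) a virus inhibited it. The groups 5NC and 3NC are not spelled out in the labels. They were taken as control groups, 5NC for OV and 3NC for KD. The labels do not state that pairing, which rests on how the study's design text groups the names. The labels give neither the animals' age, nor the type of virus, its promoter or the testis cells it reached, nor whether a group's 3 libraries come from separate animals. No symbol in the table holds the number of lncRNA8276, and its level was not analysed here. Libraries held 15448442 to 16355720 estimated reads. On the first principal component of all tested genes, which carried 21.4% of the variance, the 3NC replicate 2, OV replicate 3 and OV replicate 1 libraries stood apart from the other 9, at 29.33, 27.78 and 20.11. The spermatid markers Prm1, Prm2, Tnp1 and Tnp2 were abundant in every library, as the labelled tissue implies. Levels below are in FPKM, reads scaled by gene length and library total, so they can be set beside each other between genes.

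In levels, the module ran from Fdft1, squalene synthase, at a mean of 119.6 FPKM over the 12 libraries to Abcg1 at 0.37 FPKM. Fdft1 stood at the 94th percentile of the tested genes and differed by only a factor of 1.14 between its highest and lowest library. Fdps (farnesyl diphosphate synthase) averaged 74.2 FPKM, Sqle (squalene epoxidase) 48.6, Hmgcs1 (HMG-CoA synthase, at the entry of the path) 41.5, Cyp51 (lanosterol demethylase) 30.7, Idi1 (isopentenyl diphosphate isomerase) 29.9 and Msmo1 (sterol methyl oxidase) 27.2 FPKM. Insig2 averaged 22.4 and Insig1 12.02 FPKM. Abcg1 rested on 16 to 64 reads per library and Hsd17b7 averaged 2.30 FPKM.

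**Figure D1:**
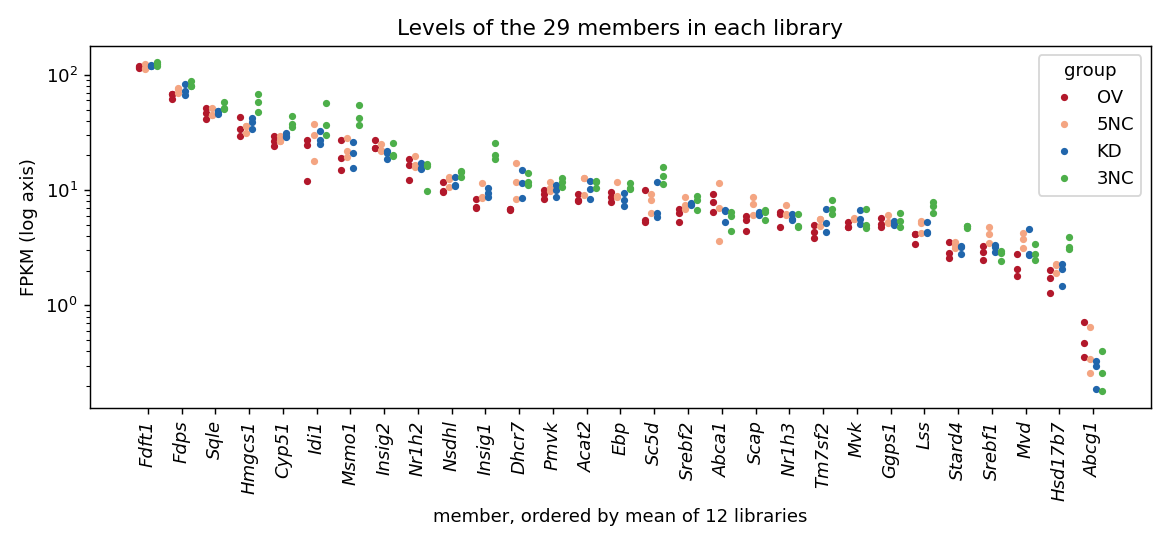
Level of each of the 29 genes in every library, in FPKM on a log axis, with the genes ordered by their mean and the libraries marked by group. The order runs from Fdft1 at 119.6 FPKM to Abcg1 at 0.37 FPKM, and the 3NC mean is the highest for 14 of the 19 synthesis enzymes.

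Across the 4 groups most of the module was highest in 3NC. The group mean was highest in 3NC for 17 of the 29 genes, against 22.4% of all tested genes, and lowest in OV for 19 of the 29, against 23.9% of all tested genes. Among the 19 synthesis enzymes, 14 had their highest group mean in 3NC and 15 had their lowest in OV. Of the 5 transport and LXR genes, 1 was highest in 3NC, Stard4, and 3 were lowest there, Abca1, Nr1h2 and Nr1h3. Srebf1 was also lowest in 3NC. Of all tested genes, 25.3% had their lowest group mean in 3NC. Summed over the 19 enzymes, the level lay at 382.6 to 441.7 FPKM in OV, 407.2 to 464.2 FPKM in 5NC, 412.5 to 485.8 FPKM in KD and 516.2 to 596.7 FPKM in 3NC, so the 3NC libraries did not overlap with the other 9. In 7 genes, Insig1, Hmgcs1, Lss, Cyp51, Msmo1, Hsd17b7 and Stard4, every 3NC library was above all 9 others, which held for 128 of the 16320 tested genes (0.784%). On FPKM, in 3 genes, Lss, Dhcr7 and Insig1, every OV library was below all 9 others, which held for 55 tested genes (0.337%). For Lss the margin was narrow, at 4.19 FPKM in OV replicate 2 against 4.21 FPKM in 5NC replicate 2. Scaled to library size, the Lss reads of OV replicate 3 lay above those of 5NC replicate 2 (414 against 380 reads before scaling).

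**Figure D2:**
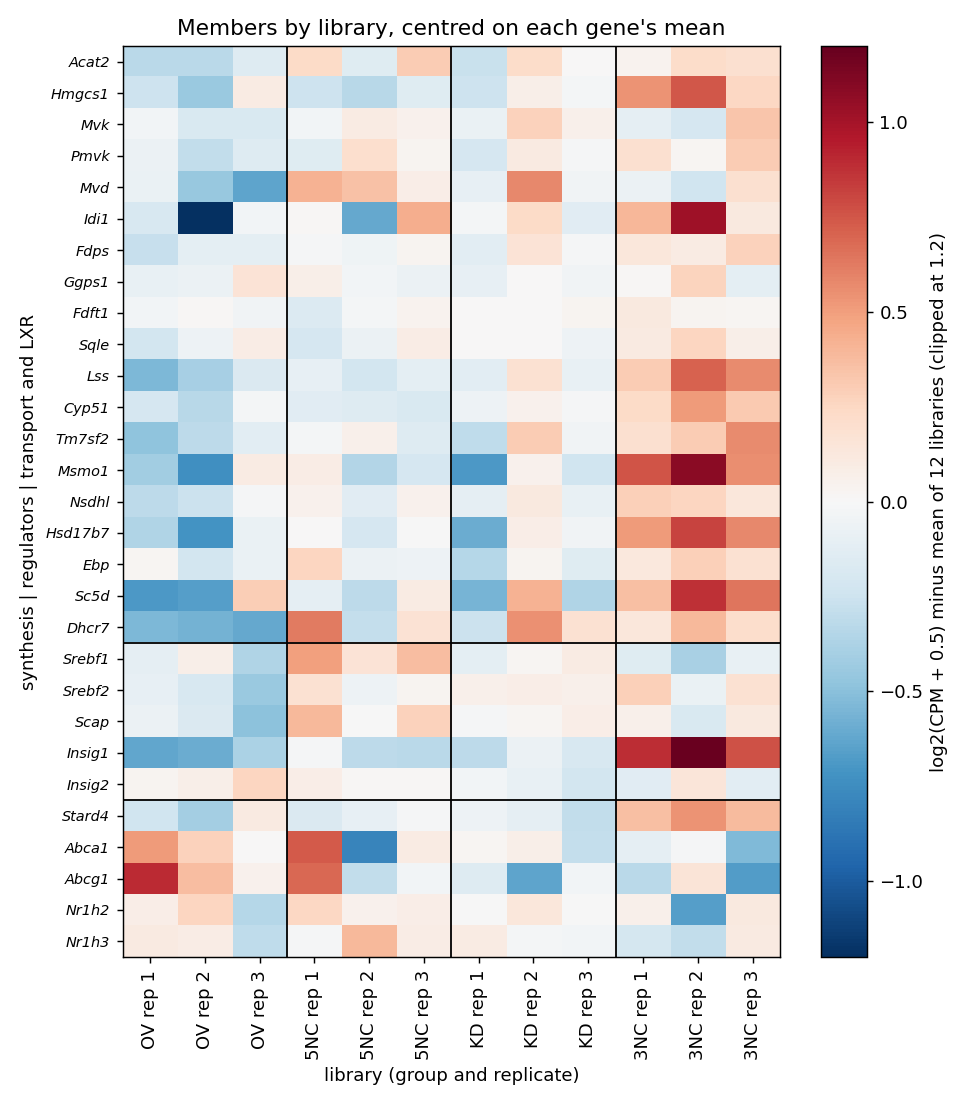
Deviation of each gene's log2 read count scaled to library size from its own mean over the 12 libraries, as colour with red above and blue below the mean, with genes down the page by role and libraries across in the order OV, 5NC, KD and 3NC. The 3NC columns are red for most synthesis enzymes and for Insig1, and the OV group mean is the lowest for 19 of the 29 genes.

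The inhibitor Insig1, which retains SCAP in the endoplasmic reticulum, differed most from 3NC. It stood at 7.06, 7.15 and 8.39 FPKM in OV, 11.45, 8.62 and 8.69 FPKM in 5NC, 8.74, 10.39 and 9.40 FPKM in KD, and 20.32, 25.49 and 18.57 FPKM in 3NC (replicates 1 to 3 in each group). All 3 libraries of 3NC were well above the other 9, and 5NC and KD lay in the same range. Insig1 fell in KD against 3NC, with a log2 fold change of −1.16 ± 0.13 (SE; adjusted p = 0.00081), and in 5NC against 3NC, at −1.19 ± 0.13 (adjusted p = 0.00045; edgeR quasi-likelihood test, Benjamini-Hochberg over 16320 genes, as for every adjusted p below unless another tool is named). Both comparisons, and OV against 3NC below, use the same 3NC libraries, so they are not independent. Without 3NC replicate 2, the library that stood apart, the log2 fold changes were −1.03 for KD (adjusted p = 0.0034) and −1.05 for 5NC (adjusted p = 0.0014). Insig1 lies at chr5:28071412-28078662 (GRCm38), and the annotated lncRNA Gm35223 overlaps it over 7251 bases, so without knowledge of strand, which the sources used here do not give, reads of the pair cannot be told apart.

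In KD against 3NC, Insig1 was the only member of 29 called. The comparison asks what inhibition of lncRNA8276 does relative to its control. Of all tested genes, 0.153% were called lower in KD and 0.0245% higher. By sign 22 of the 29 lay lower and 7 higher in KD, against 50.5% and 49.5% of all tested genes, and the median log2 difference was −0.16, against −0.0021. In 10 of the 29 every KD library lay below every 3NC library and in 0 above, against 8.32% and 7.46% of all tested genes. At an unadjusted p under 0.05, 11 of the 29 were lower and 0 higher, against 3.47% and 2.53% of all tested genes. Among the 19 synthesis enzymes, 17 were lower by sign (median −0.26) and 8 of them did not overlap.

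The other members nearest the threshold in KD against 3NC were the remaining 6 of the 7 genes named above. Msmo1 had 15.45, 26.01 and 21.01 FPKM in KD, against 42.46, 54.45 and 36.98 FPKM in 3NC (log2 difference −1.09 ± 0.24, adjusted p = 0.161). Hsd17b7, a keto reductase late in sterol synthesis, had 1.46, 2.28 and 2.07 FPKM in KD, against 3.11, 3.90 and 3.24 FPKM in 3NC (−0.83 ± 0.19, adjusted p = 0.161). Stard4, a carrier of sterol between membranes, had 3.20, 3.29 and 2.78 FPKM in KD, against 4.66, 4.91 and 4.88 FPKM in 3NC (−0.60 ± 0.13, adjusted p = 0.145). In all 3 the lowest 3NC library was above the highest KD library, and none passed the edgeR test. Lss, lanosterol synthase, had 4.28, 5.34 and 4.35 FPKM in KD, against 6.39, 7.96 and 7.28 FPKM in 3NC (−0.55 ± 0.13, adjusted p = 0.156). Hmgcs1 had 33.70, 42.21 and 38.94 FPKM in KD, against 58.10, 67.89 and 47.32 FPKM in 3NC (−0.59 ± 0.14, adjusted p = 0.210). Cyp51 had 28.75, 31.33 and 29.52 FPKM in KD, against 35.35, 43.54 and 37.26 FPKM in 3NC (−0.37 ± 0.09, adjusted p = 0.179). These enzymes too were separated by group without passing that test. With DESeq2 all 7 were called in this comparison, and with voom 6 of them, without Lss. Over all 16320 genes DESeq2 called 71 there and voom 93, against 29 with edgeR.

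Sc5d, the desaturase late in the path, was at 5.80, 11.65 and 6.36 FPKM in KD, against 11.38, 15.77 and 13.17 FPKM in 3NC, where KD replicate 2 overlapped the 3NC libraries (−0.75 ± 0.31, adjusted p = 0.764). With the replicate number as a block in a fit of the 6 libraries, Sc5d was called, as were Insig1, Hmgcs1, Msmo1 and Hsd17b7, of 77 genes in all. The same block in the fit of all 12 libraries called Insig1 alone of the 29. No label states that libraries of the same number belong together. Ebp, a sterol isomerase, was at −0.35 ± 0.13 (adjusted p = 0.740) with the groups apart. Leydig cell markers summed to 1839 to 2736 FPKM in KD, against 2317 to 2417 FPKM in 3NC, a sum made up mostly of Insl3. By sign 5 of 8 were lower and 3 higher, and 0 were called. Fdx1 had the smallest p of the list (−0.61 ± 0.13, adjusted p = 0.116). The mitochondrial cholesterol carrier Star had 35.93, 54.06 and 43.29 FPKM in KD, against 60.08, 101.23 and 69.74 FPKM in 3NC, and the groups did not overlap. Hsd3b1 lay the other way, at a mean of 98.96 FPKM in KD and 85.39 FPKM in 3NC. Immediate early genes, which respond quickly to stimuli, summed to 72.87 to 87.11 FPKM in KD, against 76.11 to 80.17 FPKM in 3NC, with 6 of 12 lower by sign. Of these 12, Myc (−2.80 ± 0.32, adjusted p = 0.00083) and Ier3 (−1.82 ± 0.26, adjusted p = 0.0090) fell in KD, while Fos was at 1.71 ± 0.32 (adjusted p = 0.059). Myc had 0.36, 0.37 and 0.14 FPKM in KD, against 2.14, 2.20 and 1.83 FPKM in 3NC. Ier3 had 2.50, 2.09 and 2.22 FPKM in KD, against 6.59, 9.31 and 8.47 FPKM in 3NC. For both, every 3NC library was above all 9 others, as for the 7 genes above. The part of these markers in the sterol genes was not tested, and in bulk tissue fewer cells of a type and less RNA per cell cannot be told apart.

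**Figure D3:**
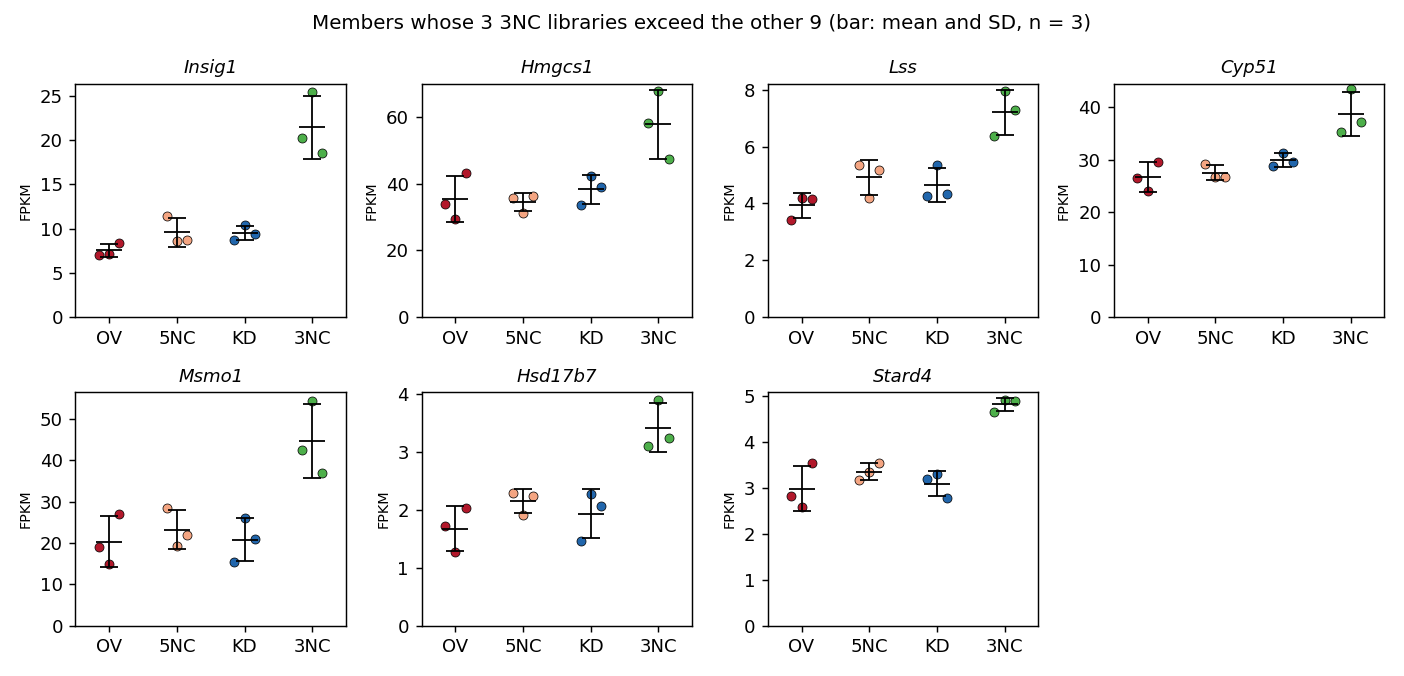
Level in FPKM of the 7 genes whose 3NC libraries are all above the other 9, with 1 point per library, a bar for the mean and an error bar for the SD (n = 3 per group). As a ratio the gap is widest for Insig1, at 7.06 to 11.45 FPKM outside 3NC and 18.57 to 25.49 FPKM in 3NC.

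Promoters of the 4 genes called in 5NC against 3NC are printed here, since all 4 fell in that comparison. Each runs from 250 bases before the start to 50 after it, in RefSeq's GRCm38.p6 on the gene's strand, with capitals for matches to CCAAT on either strand (ATTGG on the opposite one) and to the sterol regulatory element letters TCACNCCAC.

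Insig1 (chr5:28071162-28071461, plus strand): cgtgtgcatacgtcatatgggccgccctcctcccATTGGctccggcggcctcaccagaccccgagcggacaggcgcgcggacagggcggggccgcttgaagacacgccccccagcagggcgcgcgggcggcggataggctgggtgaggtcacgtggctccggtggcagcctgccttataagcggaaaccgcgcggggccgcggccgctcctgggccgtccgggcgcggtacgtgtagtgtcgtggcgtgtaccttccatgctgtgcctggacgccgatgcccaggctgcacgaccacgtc
Cyp51 (chr5:4104648-4104947, minus strand): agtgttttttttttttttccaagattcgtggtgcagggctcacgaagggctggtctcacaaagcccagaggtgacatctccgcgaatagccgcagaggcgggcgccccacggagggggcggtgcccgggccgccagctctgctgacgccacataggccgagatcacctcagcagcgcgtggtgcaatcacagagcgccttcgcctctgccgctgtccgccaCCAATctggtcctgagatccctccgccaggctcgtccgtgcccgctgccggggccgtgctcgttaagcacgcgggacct
Lss (chr10:76531355-76531654, plus strand): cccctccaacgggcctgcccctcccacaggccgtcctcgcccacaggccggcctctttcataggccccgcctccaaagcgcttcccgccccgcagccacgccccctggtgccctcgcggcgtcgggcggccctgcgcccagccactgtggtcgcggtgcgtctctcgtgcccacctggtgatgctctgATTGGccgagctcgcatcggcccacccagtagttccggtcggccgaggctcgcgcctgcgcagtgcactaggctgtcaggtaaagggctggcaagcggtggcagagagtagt
Hmgcs1 (chr13:119690101-119690400, plus strand): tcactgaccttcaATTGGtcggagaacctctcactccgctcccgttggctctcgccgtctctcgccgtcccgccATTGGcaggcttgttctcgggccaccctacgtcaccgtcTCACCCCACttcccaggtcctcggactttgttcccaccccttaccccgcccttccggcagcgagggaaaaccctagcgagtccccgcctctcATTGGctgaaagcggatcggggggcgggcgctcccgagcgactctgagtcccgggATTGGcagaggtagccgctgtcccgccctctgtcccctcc

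Of the 29 genes, 24 had a promoter in the RefSeq table. The letters TCACNCCAC, on either strand, occurred in 1 of the 24 promoters, that of Hmgcs1, at position −137 from the start and on the gene's strand (4.17%, against 1.44% of 27025 genes with a promoter). CCAAT on either strand occurred in 19 of the 24 (79.2%), against 41.1% of all genes. In Hmgcs1 it lies at 4 places on the opposite strand, in Cyp51 at −29 on the gene's strand, and on the opposite strand in Lss at −62 and in Insig1 at −216. These are letter matches in a short window and show nothing of binding.

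Between the control groups, 5NC against 3NC, 4 of the 29 fell in 5NC and 0 rose, against 0.288% of all tested genes called lower and 0.0735% called higher (0.362% in either direction). The 4 were Insig1, Cyp51, Lss and Hmgcs1. Cyp51 had 29.19, 26.70 and 26.63 FPKM in 5NC, against 35.35, 43.54 and 37.26 FPKM in 3NC, a log2 fold change of −0.52 ± 0.09 (adjusted p = 0.020). Lss had 5.36, 4.21 and 5.19 FPKM in 5NC, against 6.39, 7.96 and 7.28 FPKM in 3NC, at −0.69 ± 0.13 (adjusted p = 0.029). Hmgcs1 had 35.72, 31.33 and 36.35 FPKM in 5NC, against 58.10, 67.89 and 47.32 FPKM in 3NC, at −0.77 ± 0.14 (adjusted p = 0.035). In all 3 the groups did not overlap. Each of these 3 calls depended on single libraries, unlike that of Insig1. Without 3NC replicate 2, the library that stood apart, the adjusted p was 0.064 for Cyp51, 0.122 for Lss and 0.212 for Hmgcs1. All 3 were also lost without 5NC replicate 2 or 5NC replicate 3. Cyp51 was further lost without 3NC replicate 3, Lss without 5NC replicate 1, 3NC replicate 3 or KD replicate 3, and Hmgcs1 without 5NC replicate 1, 3NC replicate 1, KD replicate 3 or OV replicate 1, over an adjusted p of 0.053 to 0.212 in all. The annotated lncRNA 4930483K19Rik overlaps Lss over 11269 bases.

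By sign 20 of the 29 lay lower in 5NC than in 3NC and 9 higher (median −0.15 on the log2 scale, against 0.0097 for all tested genes, of which 48.1% were lower and 51.9% higher). At an unadjusted p under 0.05, 12 were lower and 1 higher, against 6.15% and 5.94% of all tested genes. In 10 the groups did not overlap with 5NC lower, against 6.63% of all tested genes, and in 1, Srebf1, with 5NC higher, against 9.14%. Srebf1, the SREBP gene better known for fatty acid synthesis, had 4.74, 3.50 and 4.13 FPKM in 5NC, against 2.85, 2.43 and 2.94 FPKM in 3NC. The log2 difference was 0.57 ± 0.14 (adjusted p = 0.153), which does not pass the edgeR test. Msmo1 stood at −0.97 ± 0.23 (adjusted p = 0.181), Hsd17b7 at −0.73 ± 0.19 (0.189) and Stard4 at −0.54 ± 0.13 (0.153), again with adjusted p in parentheses. DESeq2 called 8 of the 29 in this comparison, Srebf1 as higher and Msmo1, Hsd17b7 and Stard4 as lower beside the 4 above, and voom called 5, the 4 above and Msmo1. Over all 16320 genes DESeq2 called 148 and voom 115, against 59 with edgeR. Immediate early genes, which respond quickly to stimuli, summed to 33.75 to 42.17 FPKM in 5NC, against 76.11 to 80.17 FPKM in 3NC, with 12 of 12 lower by sign and 8 called (Fosb, Junb, Egr1, Egr2, Ier3, Atf3, Myc and Dusp1). Sertoli cell markers were higher by sign in 5NC for 10 of 10, at 615.2 to 967.1 FPKM in 5NC, against 459.1 to 624.3 FPKM in 3NC, with 0 called. Epididymis and fat markers summed to 29.06 to 133.2 FPKM in 5NC, against 18.12 to 20.92 FPKM in 3NC, with 6 of 7 higher by sign (median 1.47) and 2 called, Spink8 and Plin1 (adjusted p = 0.033 each). The part of these lists in the sterol genes was not tested.

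In OV against 5NC, which asks what overexpression does relative to its control, 0 of the 29 were called, and 0% of all tested genes. At an unadjusted p under 0.05, 1697 genes differed. DESeq2 called 50 genes and voom 31, and neither called a member. By sign 22 of the 29 lay lower in OV and 7 higher (median −0.18, against −0.0020 over all tested genes, of which 50.3% were lower and 49.7% higher). In 9 of the 29 every OV library lay below every 5NC library and in 0 above, against 8.22% and 6.46% of all tested genes. At an unadjusted p under 0.05, 7 were lower and 0 higher, against 4.79% and 5.61% of all tested genes. Of the 5 regulators, 4 were among the 9 without overlap: Srebf1, Srebf2, Scap and Insig1. Lss was another of the 9, on FPKM only, since its reads scaled to library size overlapped between the groups.

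The smallest p-values in OV against 5NC belonged to Scap, Dhcr7 and Srebf1, each at an adjusted p of 0.404. Dhcr7, a reductase at the end of the path, had 6.92, 6.84 and 6.77 FPKM in OV, against 17.19, 8.31 and 11.80 FPKM in 5NC (log2 difference −0.81 ± 0.22). The OV libraries were nearly equal and the 5NC libraries wide apart. Scap had 5.91, 5.47 and 4.41 FPKM in OV, against 8.63, 6.12 and 7.52 FPKM in 5NC (−0.47 ± 0.13). Srebf1 had 2.92, 3.30 and 2.46 FPKM in OV, against 4.74, 3.50 and 4.13 FPKM in 5NC (−0.49 ± 0.14). The groups of each were apart. Mvd, which decarboxylates mevalonate diphosphate, had 2.81, 2.07 and 1.80 FPKM in OV, against 4.27, 3.80 and 3.14 FPKM in 5NC (−0.73 ± 0.23, adjusted p = 0.404). Acat2, the thiolase that supplies acetoacetyl-CoA, was at −0.42 ± 0.14 (0.404), Srebf2, the SREBP gene best known for cholesterol synthesis, at −0.29 ± 0.11 (0.437) and Insig1 at −0.33 ± 0.13 (0.444). With the replicate number as a block in a fit of the 6 libraries, 3 of the 29 were called, Idi1, Dhcr7 and Scap, all lower in OV (adjusted p = 0.0052 for Dhcr7 and 0.049 for Scap), beside 215 genes in all. The same block in the fit of all 12 libraries called 0. Both blocked fits take libraries of the same number as belonging together, which no label states, so they do not decide between these counts.

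Leydig cell markers were also lower by sign in OV. Their summed level was 1855 to 2263 FPKM in OV, against 2159 to 4426 FPKM in 5NC, with 8 of 8 lower by sign and 0 called. Insl3 made up most of this sum. It had 3541.05 FPKM in 5NC replicate 1, against 1609.9 and 1795.1 FPKM in 5NC replicates 2 and 3. Sertoli cell markers summed to 497.4 to 596.8 FPKM in OV, against 615.2 to 967.1 FPKM in 5NC, and macrophage markers to 84.59 to 183.8 FPKM in OV, against 70.78 to 120.3 FPKM in 5NC. By sign 9 of 10 Sertoli cell markers were lower and 10 of 10 macrophage markers higher in OV, with 0 called in either list. At an unadjusted p under 0.05, 3 Sertoli cell markers were lower and 5 macrophage markers higher, against 4.79% and 5.61% of all tested genes. Among epididymis and fat markers, Spink8 had 1.29, 3.27 and 1.04 FPKM in OV, against 6.66, 29.38 and 23.40 FPKM in 5NC. The part of these markers in the sterol genes was not tested either.

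**Figure D4:**
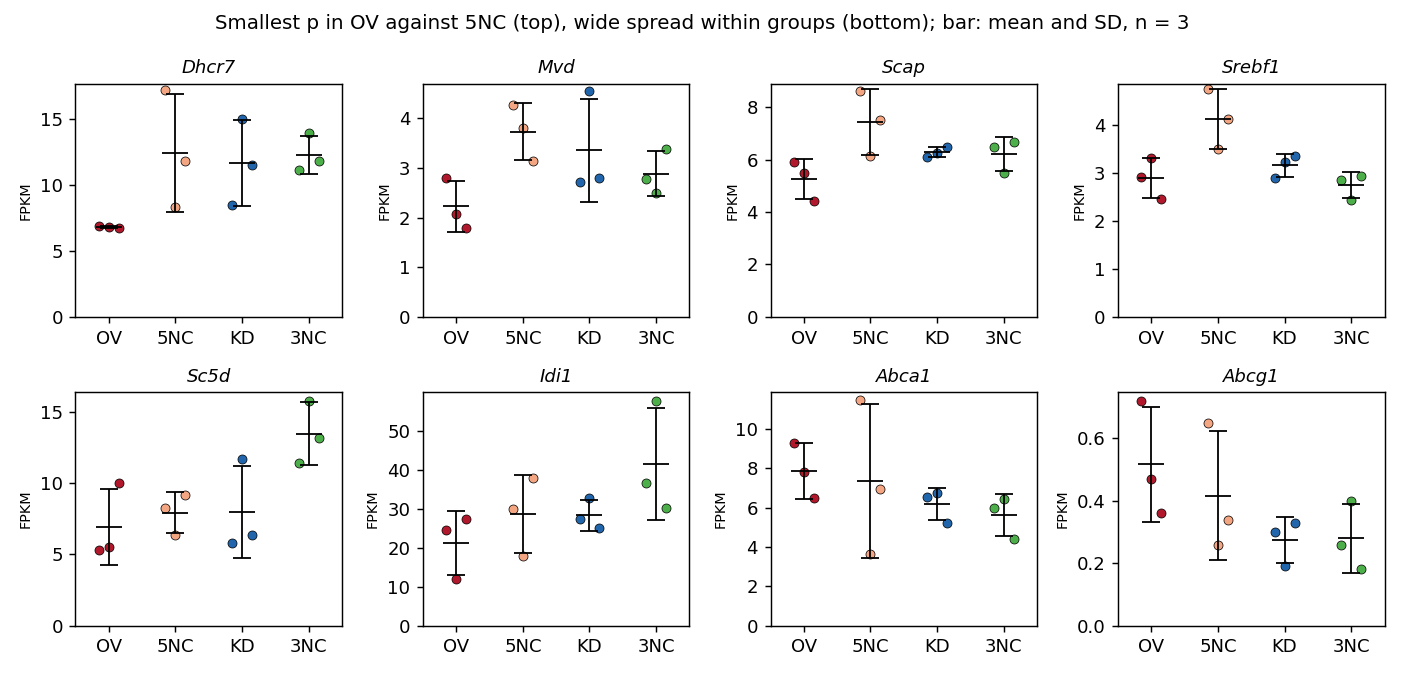
Level in FPKM of the 4 genes of smallest p in OV against 5NC (Dhcr7, Mvd, Scap and Srebf1, top) and of 4 genes that spread widely within a group (Sc5d, Idi1, Abca1 and Abcg1, bottom), with 1 point per library and the mean and SD (n = 3). Dhcr7 sits at 6.77 to 6.92 FPKM in OV and at 8.31 to 17.19 FPKM in 5NC.

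The difference between both effects, OV against 5NC minus KD against 3NC, was called for 0 of the 29 by edgeR (0.0551% of all tested genes were called higher and 0.00613% lower, 0.0613% in either direction). At an unadjusted p under 0.05, 5 of the 29 were higher and 4 lower, against 8.73% and 6.96% of all tested genes. DESeq2 and voom each called 1 of the 29, Insig1, where they called 96 and 39 genes in all. Insig1 differed by 0.84 ± 0.18 (adjusted p = 0.171 with edgeR, 0.0094 with DESeq2 and 0.048 with voom). Hmgcs1 stood at 0.65 ± 0.20, Mvd at −0.96 ± 0.32 and Srebf1 at −0.71 ± 0.20, with adjusted p of 0.257, 0.257 and 0.25.

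**Figure D5:**
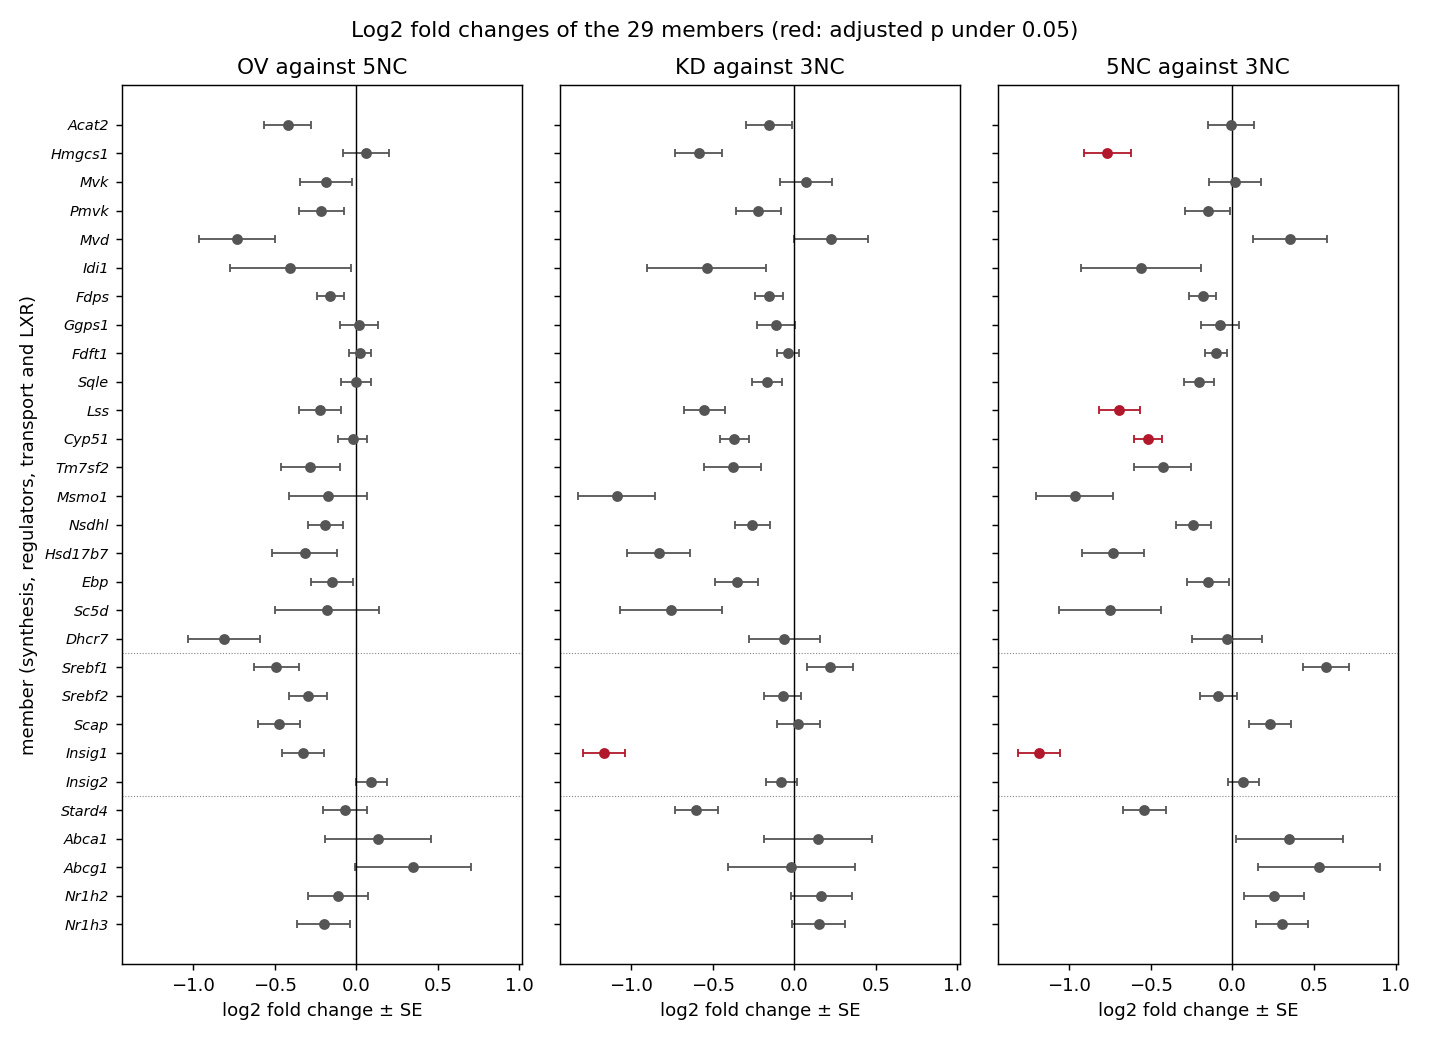
Log2 fold change with its SE for each of the 29 genes in OV against 5NC, KD against 3NC and 5NC against 3NC, from the edgeR fit. Red markers passed an adjusted p of 0.05: Insig1 in KD against 3NC, and Insig1, Lss, Cyp51 and Hmgcs1 in 5NC against 3NC, while none of the 29 did in OV against 5NC.

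The calls depended on which control group was used. In OV against 3NC 4 of the 29 fell, Insig1 (−1.51 ± 0.13, adjusted p = 6.7e-05), Lss (−0.91 ± 0.13, 0.0054), Cyp51 (−0.54 ± 0.09, 0.015) and Hsd17b7 (−1.05 ± 0.19, 0.036), against 0.276% of all tested genes called lower and 0.0429% higher. Lss had 3.43, 4.19 and 4.17 FPKM in OV, Cyp51 26.53, 24.03 and 29.64, Hmgcs1 33.84, 29.48 and 43.12, and Hsd17b7 1.73, 1.27 and 2.03 FPKM, each below the 3NC libraries given above. Insig1 and Lss stayed called whichever library was left out, and without OV replicate 3, which stood apart, 7 of the 29 were called, with Hmgcs1, Msmo1 and Stard4 added to the 4, while the calls over all genes came to 81 of 16524 (41 higher and 40 lower), against 52 of 16320 with it. With the replicate number as a block, the fit of all 12 libraries called Lss and Insig1, and the fit of the 6 libraries called 0 of the 29 and 4 genes in all (adjusted p = 0.067 for Insig1). Whether replicate numbers link OV with 3NC libraries was not checked. Hsd17b7 was lost without OV replicate 1 or 2, any 5NC library, KD replicate 3 or any 3NC library (adjusted p = 0.055 to 0.161), and Cyp51 without OV replicate 1 (0.068) or 2 (0.10). In a fit of the 6 libraries without the block, Dhcr7 and Insig1 were called, while Lss (adjusted p = 0.099), Cyp51 (0.293) and Hsd17b7 (0.177) were not. DESeq2 called 9 of the 29, all lower in OV: Hmgcs1, Fdps, Lss, Cyp51, Msmo1, Hsd17b7, Dhcr7, Insig1 and Stard4. Voom also called 9, all lower, with Nsdhl and Srebf2 in place of Fdps and Dhcr7. Over all 16320 genes DESeq2 called 108 and voom 223. Without overlap, 16 of the 29 lay lower and 1 (Abca1) higher in OV than in 3NC, against 3.47% and 4.06% of all tested genes. At an unadjusted p under 0.05, 18 were lower and 1 (Abcg1) higher, against 2.16% and 3.19%. All 19 synthesis enzymes were lower by sign and 14 of them did not overlap. Leydig cell markers summed to 1855 to 2263 FPKM in OV, against 2317 to 2417 FPKM in 3NC, again mostly Insl3. By sign 7 of 8 were lower (median −0.71), and 1 was called, Fdx1 (adjusted p = 0.030). Macrophage markers summed to 84.59 to 183.8 FPKM in OV, against 60.53 to 86.94 FPKM in 3NC, with 9 of 10 higher by sign, 7 of them at an unadjusted p under 0.05, and 0 called. Immediate early genes summed to 27.31 to 37.92 FPKM in OV, against 76.11 to 80.17 FPKM in 3NC, with 12 of 12 lower by sign and 10 called. The part of these lists in the sterol genes was not tested.

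In KD against 5NC, 0 of the 29 were called by edgeR, DESeq2 or voom, against 0.049% of all tested genes called higher and 0% lower, and at an unadjusted p under 0.05, 1 (Srebf1) was lower and 0 higher, against 2.7% and 2.35%. By sign 18 were lower and 11 higher, against 52.5% and 47.5% of all tested genes. Insig1 there was at 0.02 ± 0.13 (adjusted p = 0.999), and the median of the 29 was −0.04.

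Within groups the module spread by replicate. The median coefficient of variation of the 29 was 13.1% in OV, 12.1% in 5NC, 11.2% in KD and 13.3% in 3NC, against 12.3%, 11.3%, 7.03% and 12.6% over all tested genes in the same order. Sc5d (40.7% in KD), Idi1 (38.5% in OV), Dhcr7 (36.0% in 5NC), Abca1 (53.3% in 5NC) and Abcg1 (49.4% in 5NC) were the widest. Of the 19 synthesis enzymes, KD replicate 2 was the highest KD library for 17, against 38% of all tested genes. For Idi1, OV had 24.57, 11.96 and 27.32 FPKM and 5NC had 29.92, 17.93 and 37.79 FPKM, with replicate 2 the lowest in both groups.

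In the edgeR fit of all 12 libraries without a block, none of the other regulators and none of the transport and LXR genes was called in any comparison. Scap was called in the blocked fit of the 6 OV and 5NC libraries given above. Insig2, the homologue of Insig1, had 23.15, 23.27 and 27.33 FPKM in OV, 24.89, 21.92 and 22.27 FPKM in 5NC, 21.66, 20.82 and 18.47 FPKM in KD and 19.91, 25.52 and 20.04 FPKM in 3NC. For Insig2, OV overlapped 5NC as KD overlapped 3NC. Srebf2 had 6.82, 6.38 and 5.25 FPKM in OV, 8.69, 6.85 and 7.42 in 5NC, 7.52, 7.70 and 7.48 in KD, and 8.81, 6.76 and 8.17 FPKM in 3NC. The cholesterol exporter Abca1 had 9.30, 7.82 and 6.48 FPKM in OV, 11.45, 3.65 and 6.94 in 5NC, 6.55, 6.76 and 5.24 in KD, and 5.97, 6.43 and 4.40 FPKM in 3NC, and every group overlapped its own control. Nr1h2 and Nr1h3, the LXR genes, averaged 15.9 and 5.87 FPKM over the 12 libraries. Abcg1 was the lowest of the 29, at 0.18 to 0.72 FPKM. The enzymes not yet described were not called in any edgeR comparison either. Over the 12 libraries Mvk and Pmvk, the mevalonate kinases, ranged over 4.70 to 6.90 and 8.41 to 12.70 FPKM, and Ggps1, which makes geranylgeranyl diphosphate, over 4.74 to 6.39 FPKM. Tm7sf2, a sterol reductase, ranged over 3.82 to 8.19 FPKM and Nsdhl, a sterol dehydrogenase, over 9.63 to 14.51 FPKM.

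Of the neighbouring pathways, 7 lists with 78 genes were counted, of which 74 passed the filter. None of the 74 was called in OV against 5NC, KD against 3NC or 5NC against 3NC by edgeR. Fatty acid genes under SREBP control had 11 of 13 lower by sign in OV against 5NC (median −0.19), against 50.3% of all tested genes. In KD against 3NC 10 of 13 were lower (median −0.17), against 50.5%. There Scd1, which puts the double bond into stearate, had −0.85 ± 0.26 (adjusted p = 0.594) and Fads1 −0.71 ± 0.30 (0.764). In 5NC against 3NC 9 of 13 were lower (median −0.03), against 48.1%. Acly, which makes cytosolic acetyl-CoA, had 16.88, 17.37 and 18.28 FPKM in OV, against 24.81, 20.72 and 20.53 FPKM in 5NC (−0.31 ± 0.09, adjusted p = 0.404).

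For cholesterol storage and traffic, the medians were −0.05, −0.02 and 0.15 in the same 3 comparisons over 15 genes, with Npc2, a lysosomal cholesterol carrier, at −0.36 ± 0.08 in OV against 5NC (adjusted p = 0.355) and 18.16, 16.56 and 14.89 FPKM in OV, against 23.61, 20.06 and 21.01 FPKM in 5NC. The isoprenoid branch (13 genes) had medians of −0.02, −0.06 and −0.04. LXR partners and targets (10 genes) stood at −0.01, 0.11 and 0.08, with Rxra, the LXR partner receptor, at 0.74 ± 0.19 in KD against 3NC (adjusted p = 0.304). Ketone body genes (8) had −0.15, 0.08 and 0.16, sterol sensing and INSIG turnover genes (10) 0.01, −0.07 and −0.03, and oxysterol and bile acid genes (5) −0.25, −0.22 and −0.20. Of the last, Ch25h, which makes an oxysterol, was at 0.10, 0.05 and 0.05 FPKM in KD, against 0.42, 0.66 and 0.53 FPKM in 3NC, a level at which a few reads decide (log2 difference −2.83 ± 0.69, adjusted p = 0.21).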

How the data were processed

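The data are 1 table of 20718 genes in 12 RNA sequencing libraries of mouse testis. The authors deposited expected counts, that is estimated reads per gene without normalisation, per the file headers; 88% of the values are whole within a tolerance of 1e-06, and they were rounded for testing. A second set of values that the authors deposited is normalised, and its unit was read here as FPKM. Over 5204 genes with over 500 reads, the median worth of 1 read scaled inversely with each library's total, within 0.51%. Single genes could deviate more. Lss, which had fewer reads, had 419 reads at 4.28 FPKM in KD replicate 1 and 419 at 5.19 FPKM in 5NC replicate 3. The genome build was mm10, per the submitters' processing notes. Aligner, counter, annotation and strandedness: not given in the sources used here. Another 18 per-sample columns of the table belong to no listed sample and were not used.

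Groups come from the sample titles. Since no label says that a group's libraries came from separate animals, the p-values only reflect how these libraries vary, which may be technical. Tests used R 4.3.3 with edgeR 4.0.16: quasi-likelihood with robust dispersion, TMM scaling (factors 0.985 to 1.06) and filterByExpr (at least 10 reads scaled to library size, 15 in total), in 1 fit of all 12 libraries, with Benjamini-Hochberg adjustment over 16320 genes and a threshold of 0.05. The common biological coefficient of variation was 0.13. SE is the log2 fold change divided by the root of F. Overlap of groups was judged on FPKM. Alternatives used DESeq2 1.42.0, limma 3.58.1, other filters, a replicate block and the other control group. On data simulated for KD against 3NC with 16210 genes, 89 of 100 genes with a log2 fold change of 1 and 100 of 100 with 2 were recovered, with 12 false calls. Changes were placed only in genes above a minimum of reads, and each gene was given the spread typical of its level. The shares recovered need not hold for genes that spread more widely. Log2 fold changes smaller than 1, as most members had, were not simulated, so the shares do not cover them.

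Replicate numbers were checked for pairing by the correlation of deviations from the group means over genes. For OV and 5NC it was 0.183, 0.173 and 0.14, above the 0.1 set for pairing. For KD with 3NC it was 0.0218 to 0.0424 and for 5NC with 3NC at most 0.0194, below that value. Libraries of unlike number were not compared, and no label states a pairing. These correlations therefore cannot show whether the numbers pair libraries.

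The named genes are those called in any comparison, then up to 8 of smallest p in each. The members, the pathway lists and the marker lists were chosen with earlier results of these data known, and no p-value was adjusted over a list alone. Promoters come from RefSeq (GRCm38.p6). By the annotation, 4 of the 29 genes, Fdft1, Nr1h3, Srebf1 and Tm7sf2, overlap another gene of the table.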

Additional observations from a re-analysis of the deposited data

How the results depend on the processing

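Insig1 stayed lower and past the threshold in 5NC against 3NC under every alternative run (log2 fold change −1.29 to −1.05), and in KD against 3NC under all but one, the use of 5NC as control. Counts depended on the tool. In KD against 3NC, where edgeR called 29 genes and 1 member, DESeq2 called 71 genes and 7 members, voom 93 and 6, the replicate block in 6 libraries 77 and 5, and limma on log2(FPKM + 0.1) 12 genes. In 5NC against 3NC, where edgeR called 59 genes and 4 members, DESeq2 called 148 and 8, and voom 115 and 5. The replicate block in 6 libraries called 94 genes and 5 members, Hmgcs1, Lss, Msmo1, Sc5d and Insig1. Limma on FPKM called 27 (pseudocount 0.1) and 34 (pseudocount 1) genes there, with 1 member each. In OV against 5NC, where edgeR called 0, DESeq2 called 50 genes, voom 31 and the replicate block in 6 libraries 215 genes with 3 members. The difference between both effects gave 10 genes with edgeR, 96 with DESeq2 and 39 with voom, with 1 member each in the last 2 tools, and 4 genes with limma on FPKM + 0.1. The cause of these differences was not tested.

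With 3NC as control for OV, 52 genes and 4 members were called and Srebf1 turned to 0.085. With 5NC as control for KD, 8 genes and 0 members were called, and Cyp51 (0.15), Hmgcs1 (0.18), Insig1 (0.022) and Lss (0.14) turned sign. Leaving out each replicate gave 0 to 5 genes and 0 members in OV against 5NC, 10 to 34 genes and 1 to 2 members in KD against 3NC, 16 to 76 genes and 1 to 4 members in 5NC against 3NC, and 4 to 23 genes and 0 members for the difference; in OV against 3NC it gave 27 to 81 genes and 2 to 7 members. Among single genes, 606 alternative values kept direction and side, 48 lost the call, 20 gained it and 5 reversed. Counting error limits Abcg1 most, at 16 to 64 reads per library.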
